A study of Mus musculus with 8 samples.

Results

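Histone chaperones are proteins that carry histones and hand them to DNA. The genes described here are 10 members of this machinery and of the repressors that work with it: Chaf1a, Chaf1b, Asf1a, Asf1b, Nasp, Hira, Atrx, Daxx, H3f3b and Rif1. They were chosen by name, with earlier results of these data known, as symbols present in both count tables. They make up 10 of the 24421 genes listed there. All 10 passed the filter on low counts in each comparison.

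During S phase, newly made histone H3 and H4 are held by NASP, passed to ASF1 and then to chromatin assembly factor 1 (CAF-1), whose large and middle subunits are encoded by Chaf1a and Chaf1b and which places them behind the replication fork. Outside replication, the variant histone H3.3, encoded by H3f3a and H3f3b, is placed by the HIRA complex at active genes and by ATRX with DAXX at telomeres and silent repeats. RIF1 sets replication timing and acts in DNA repair. In mouse embryonic stem cells, CAF-1 and several of these repressors are known for holding back transposable elements and genes of the 2-cell embryo.

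RNA was measured in 4 groups of 2 libraries of mouse embryonic stem cells, all kept in 2i/LIF, a medium for naive pluripotent cells, for 3 to 4 passages. In the v6.5 line, Ubc9-depleted cells given doxycycline (DOX) for 72 hours were compared with Ubc9 control cells, labelled WT. Ubc9 is the enzyme that passes SUMO to target proteins. H1 TKO cells, whose targeted genes Hist1h1c, Hist1h1d and Hist1h1e encode linker histones, were compared with H1 control cells, also labelled WT, and both H1 lines came from an earlier publication. The labels do not say how DOX lowers Ubc9, whether the Ubc9 control cells received DOX, how many clones were used, or if the 2 libraries within each group stem from different cultures. The p-values therefore measure the spread between libraries, which may be technical.

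Library totals ran from 75972231 to 102780141 counts in the Ubc9 table and from 44441713 to 68445181 in the H1 table. Hist1h1c, Hist1h1d and Hist1h1e had 0 counts in both H1 TKO libraries. All 8 embryonic stem cell markers examined, among them Pou5f1, Sox2 and Nanog, were above 1 CPM, the count scaled to a fixed library size, in every library. Summed over 8 fibroblast markers, the level was 36.7 and 34.8 CPM in Ubc9-depleted cells against 18.0 and 17.8 in their controls, with none of the 8 at 0. In the H1 table it was 7.78 and 8.10 CPM in TKO cells against 12.8 and 21.7, and Postn was at 0 in all 4 libraries. The 8 stem cell markers summed to 4584 to 5119 CPM in the Ubc9 table, to 10187 and 10300 CPM in H1 TKO cells and to 5171 and 5601 CPM in H1 controls. Primitive endoderm markers summed to 10.8 and 6.68 CPM after Ubc9 depletion against 3.83 and 3.36 in controls, and to 3.87 to 5.97 in the H1 table. Trophectoderm markers summed to 16.7 and 14.9 CPM in H1 TKO cells against 2.69 and 2.62, and to 6.91 and 5.30 after depletion against 9.15 and 10.1. Neuroectoderm markers summed to 24.4 and 23.5 CPM after depletion against 27.4 and 29.5, and to 23.2 and 21.6 in H1 TKO cells against 39.0 and 69.4. The part of these marker differences in the results was not tested. Ubc9-depleted library 1 stood apart in holding counts for 23462 genes, against 18584 to 19591 in the other 3 libraries of its table. H1 control libraries 1 and 2 stood apart from each other, as described with the H1 results.

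The promoters of Chaf1a, Chaf1b and Nasp are shown first, since CAF-1 is the central complex of this group and Nasp had the lowest log2 fold change of the 10 genes in both comparisons. They are the 250 bases before the RefSeq start, 5′ to 3′ on the gene's strand in GRCm38.p6, and hold no annotated exon. Capitals mark TTCCCGC, a core bound by E2F factors of the cell cycle, CCAAT, bound by NF-Y, and TTTGAA, the cell cycle homology element, on either strand. Chaf1a lies at chr17:56040166-56040415 (+), Chaf1b at chr16:93883651-93883900 (+) and Nasp at chr4:116627952-116628201 (-).
Chaf1a: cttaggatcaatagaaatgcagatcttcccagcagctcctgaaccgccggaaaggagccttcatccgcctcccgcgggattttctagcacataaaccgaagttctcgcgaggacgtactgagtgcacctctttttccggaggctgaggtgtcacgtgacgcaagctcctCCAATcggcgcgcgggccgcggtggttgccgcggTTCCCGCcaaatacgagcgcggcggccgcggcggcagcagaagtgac
Chaf1b: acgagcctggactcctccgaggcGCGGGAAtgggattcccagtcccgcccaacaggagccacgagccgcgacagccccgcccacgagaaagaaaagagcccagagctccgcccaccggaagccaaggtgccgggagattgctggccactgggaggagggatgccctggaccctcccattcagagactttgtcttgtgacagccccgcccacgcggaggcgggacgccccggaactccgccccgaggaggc
Nasp: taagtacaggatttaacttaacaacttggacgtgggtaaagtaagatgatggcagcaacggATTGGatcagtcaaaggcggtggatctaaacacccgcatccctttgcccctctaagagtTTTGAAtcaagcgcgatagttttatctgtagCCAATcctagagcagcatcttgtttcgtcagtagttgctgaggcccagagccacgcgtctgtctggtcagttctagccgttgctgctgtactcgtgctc

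RefSeq windows of 300 bases (250 before and 50 after the start) were matched for 9 of the 10 genes. TTCCCGC was found in 2 of the 9, Chaf1a and Chaf1b, and in 4.60% of 32851 RefSeq promoters of the same length. TTGGCGC was found in the Atrx window and in 2.45% of all promoters, and TTCGCGC in 0 of the 9 and in 1.59% of all. CCAAT was present in 7 of the 9, the exceptions being Chaf1b and Hira, and in 37.4% of all promoters. TTTGAA was present in the Asf1b and Nasp windows and in 17.9% of all. A member was counted if any of its windows held the motif, while the shares of all promoters are per window. Daxx has windows 1 to 3, of which only window 1 holds CCAAT. Each motif was searched on both strands, and a match is a description of the letters only. TTGGCGC shares letters with CCAAT read on the other strand, and in the Atrx window its match overlaps a CCAAT match.

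In Ubc9-depleted cells, 7 of the 10 genes were lower than in the controls: Chaf1a, Asf1a, Asf1b, Nasp, Hira, Atrx and Daxx. Their decreases ran from 18.0% for Asf1a to 33.4% for Nasp, and 0 of the 10 genes were higher. Across all 16499 genes tested in that comparison, 15.0% were lower at an adjusted p under 0.05 and 21.1% higher. Among genes whose mean level reached 10 CPM, as did all 10 members, 25.6% were lower and 10.2% higher. The libraries of the 2 groups did not overlap in 9 of the 10 genes, all lower after depletion, against 32.2% of all genes without overlap in that direction and 36.7% in the other. The median log2 fold change of the 10 was -0.34, against 0.06 over all genes tested and -0.14 over 8565 annotated genes of at least 10 CPM. In bulk RNA, fewer cells in S phase and less of a transcript per cell cannot be told apart.

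**Figure D1:**
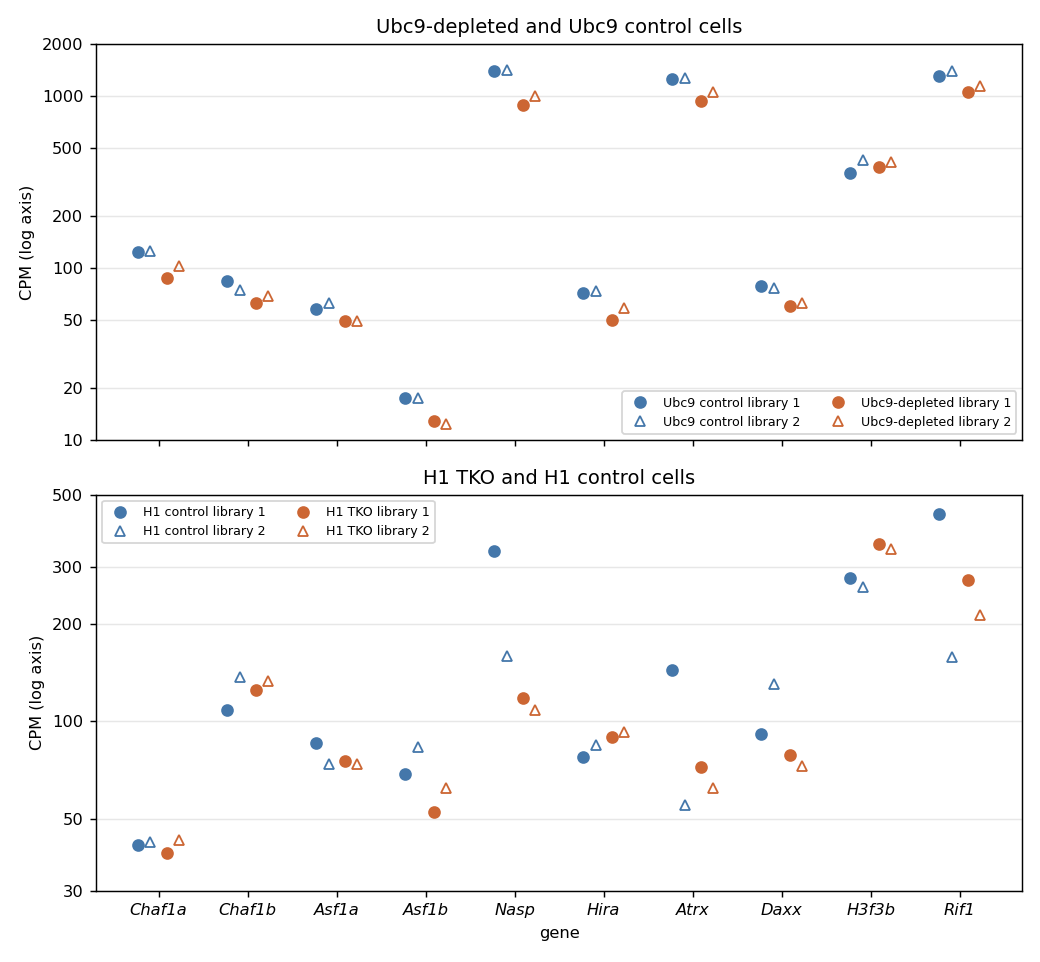
Level of each gene in each library, in CPM on a log axis, for the Ubc9 table (top) and the H1 table (bottom); circles are library 1 and triangles library 2 of a group. In the top panel both Ubc9-depleted libraries lie below both controls for every gene but H3f3b, and in the bottom panel H1 control libraries 1 and 2 lie far apart for Nasp, Atrx and Rif1.

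Among carriers of newly made histones, Nasp, which holds a soluble reserve of H3 and H4, stood at 882 and 995 CPM in Ubc9-depleted cells and at 1400 and 1419 CPM in their controls. Both depleted libraries were well below both controls. The log2 fold change was -0.59 ± 0.13 (SE; adjusted p = 9.0e-04 by Benjamini-Hochberg in edgeR's quasi-likelihood test), a decrease of 33.4%. Nasp was the only member that was called with a decrease of at least 1.5-fold, as were 4.43% of all genes.

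Asf1b, the ASF1 form linked to proliferating cells, measured 13.0 and 12.4 CPM after depletion and 17.5 and 17.5 CPM in the controls. The libraries of each group lay close together and the groups did not overlap. It fell by 0.47 ± 0.11 on the log2 scale (adjusted p = 0.00133 in the edgeR test). Asf1a, the other ASF1 gene, had 49.4 and 49.5 CPM after depletion and 57.9 and 62.7 in the controls, and fell by 0.29 ± 0.11 (adjusted p = 0.0464 in the edgeR test). Its groups did not overlap either, but its call lies close to the threshold and held in 6 of 12 alternatives. It was lost, for example, with RLE factors (adjusted p = 0.0538) and without Ubc9-depleted library 1 (0.0528). Of the exonic bases of Asf1a, 1748 are shared with Mcm9 on the other strand, which rose by 0.74 (adjusted p = 3.1e-06 in the edgeR test). Whether counting used strand is not given in the sources used here, so reads of the shared bases cannot be assigned.

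The CAF-1 genes moved in the same direction, and 1 of the 2 passed the test. Chaf1a, the large subunit that binds the replication clamp PCNA, stood at 87.8 and 103 CPM after depletion and at 123 and 126 CPM in the controls. The lower depleted library was library 1, and both were below the controls. Chaf1a fell by 0.38 ± 0.12 on the log2 scale (adjusted p = 0.0148, edgeR with Benjamini-Hochberg adjustment), a decrease of 23.4%. Chaf1b, the middle subunit, measured 62.7 and 68.9 CPM against 83.7 and 75.0 in the controls. Its groups did not overlap, yet the log2 fold change of -0.27 ± 0.12 did not pass (adjusted p = 0.0697 in the edgeR test). Chaf1a shares 4648 exonic bases with Ubxn6 on the other strand, whose own log2 fold change was 0.06 (adjusted p = 0.740 in the edgeR test).

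The H3.3 chaperones were also lower. Hira, the scaffold of the HIRA complex, stood at 50.1 and 58.7 CPM after depletion and at 71.6 and 73.0 CPM in the controls, with no overlap. It fell by 0.41 ± 0.12 on the log2 scale (adjusted p = 0.00683 in the edgeR test). Overlapping annotated genes, Gm28539 and a pair of processed pseudogenes, share 2778 of its exonic bases between them. No gene sharing these bases is listed in the count tables under that name. Daxx, which binds H3.3 directly, had 60.3 and 62.9 CPM against 78.9 and 76.4 and fell by 0.33 ± 0.11 (adjusted p = 0.0225 in the edgeR test). Atrx, the ATPase that works with DAXX, had 933 and 1053 CPM against 1246 and 1277 and fell by 0.35 ± 0.13 (adjusted p = 0.0397 in the edgeR test). The Atrx call held in 5 of 12 alternatives and was lost with RLE factors (adjusted p = 0.0538), no low-count filter (0.199) and length offsets (0.0628), among others. For both genes the depleted libraries were below the controls, and the ratio of Atrx to Daxx per kilobase was 2.24 and 2.42 after depletion and 2.29 and 2.42 in the controls.

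H3f3b, which encodes H3.3 itself, did not follow the chaperones. It measured 387 and 414 CPM after depletion and 355 and 426 CPM in the controls, so that the depleted libraries lay between the control libraries. The log2 fold change was 0.04 ± 0.13 (adjusted p = 0.855 in the edgeR test). H3f3a, which encodes the same protein, had a log2 fold change of 0.10 (adjusted p = 0.483 in the edgeR test). The H3.3 genes and their processed copies share sequence, so how reads were divided between them is uncertain.

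Rif1 stood at 1058 and 1133 CPM after depletion and at 1296 and 1403 CPM in the controls. The groups did not overlap, and the log2 fold change of -0.30 ± 0.13 did not pass (adjusted p = 0.0707, edgeR with Benjamini-Hochberg adjustment). It was called lower in 5 of 12 alternatives, among them DESeq2 (adjusted p = 0.0102), edgeR with GC offsets (0.0413), and edgeR without Ubc9-depleted library 1 (0.0374) or 2 (0.00117). Chaf1b passed in 1, without Ubc9-depleted library 2 (adjusted p = 0.00381, edgeR). With all 4 libraries and TMM factors, the 3 genes not called were Chaf1b, H3f3b and Rif1.

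**Figure D2:**
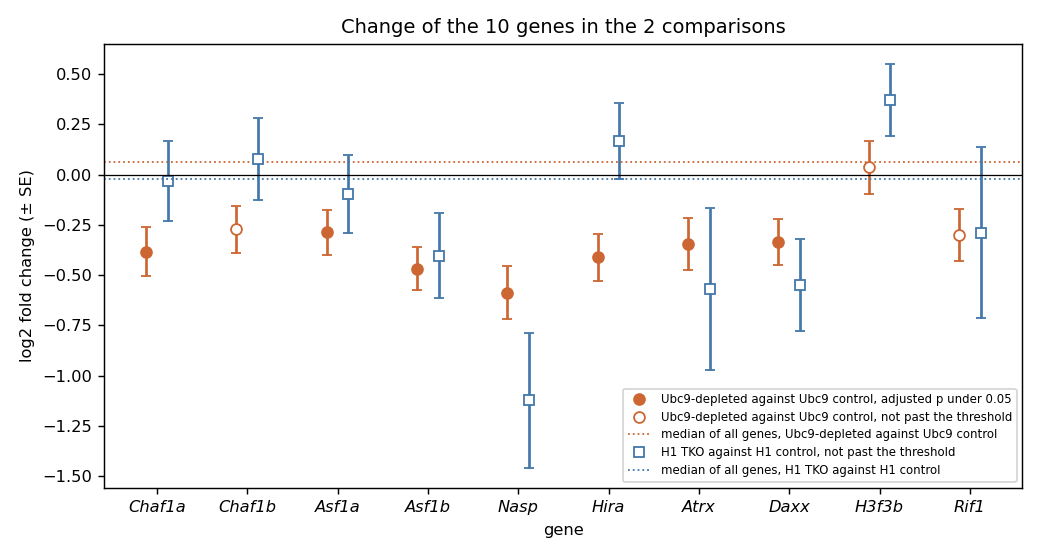
Log2 fold change of each gene with its SE in Ubc9-depleted against Ubc9 control cells and in H1 TKO against H1 control cells; filled points have an adjusted p under 0.05 in the edgeR test, and dotted lines are the medians of all genes tested. The filled points all belong to the Ubc9 comparison, where Nasp has the lowest value, -0.59, and the H1 values carry larger errors, 0.43 for Rif1.

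The size of the Ubc9 decreases, but not their direction, depended on the scaling. The 9 genes below 0 stayed below 0 in each of the 12 alternatives run. Scaled by library totals alone, which moved the median of all genes up by 0.19 to 0.25, only Nasp was called (-0.40), and 6.57% of all genes were called lower. Without Ubc9-depleted library 1, the library with counts for the most genes, 7 of the 10 were called lower (15.3% of all genes), and without library 2 there were 9 (22.9% of all genes). When either Ubc9 control library was left out, only Asf1b was called, with 4.45% of all genes lower without library 1 and 3.93% without library 2. The spread then came from the depleted pair alone.

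**Figure D3:**
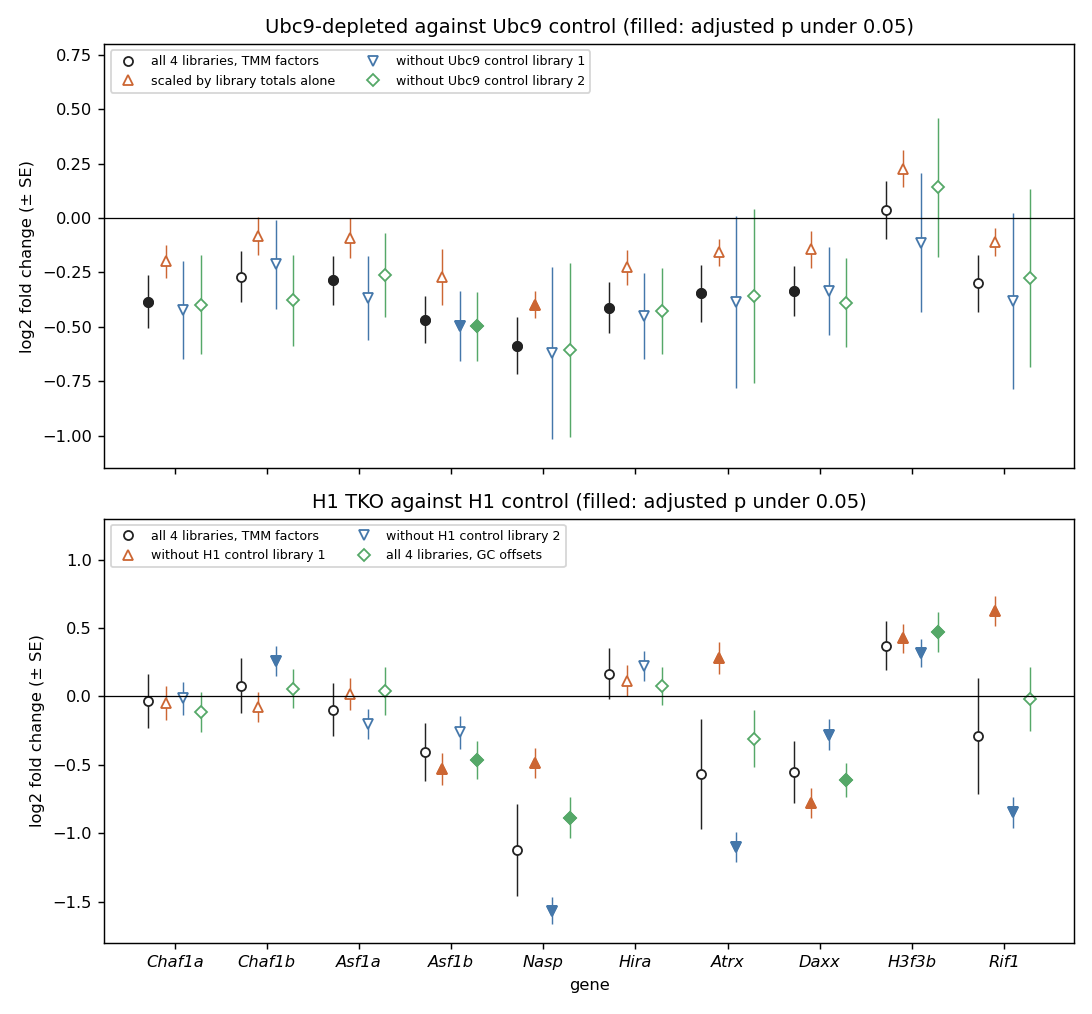
Log2 fold change of each gene with its SE under 4 settings of the Ubc9 comparison (top) and of the H1 comparison (bottom); filled points have an adjusted p under 0.05. In the top panel all values but those of H3f3b stay below 0, and in the bottom panel Rif1 lies at 0.63 without H1 control library 1 and at -0.85 without library 2.

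In H1 TKO cells, 0 of the 10 genes passed the edgeR test, against 8.43% of 14800 genes called lower and 8.59% called higher. Among genes of at least 10 CPM these shares were 7.98% and 6.76%. Nasp and Daxx had an unadjusted p under 0.05, both lower, and DESeq2 called 1 gene, Nasp, lower, as it did 10.5% of all genes. The libraries did not overlap for 3 genes that were lower in the knockout (Asf1b, Nasp, Daxx) and 2 that were higher (Hira, H3f3b), against 30.6% and 31.4% of all genes. The median log2 fold change of the 10 was -0.19, against -0.02 over all genes tested. It was -0.07 with GC offsets. Across the 12 alternatives it ran from -0.30 with library totals alone to -0.01 without H1 control library 1. Without library 2 it was -0.23. Over annotated genes of up to 44.7% GC the median was -0.20, and over those of highest GC 0.08. Asf1a, Nasp, Rif1, Atrx and H3f3b lie below 44.7%. The part of GC content in the members' median was not tested beyond the offsets.

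Nasp was lower in both H1 TKO libraries, at 118 and 108 CPM, than in the controls, at 334 and 159 CPM. The log2 fold change was -1.12 ± 0.33 (adjusted p = 0.0602 in edgeR's quasi-likelihood test). It was -0.48 without H1 control library 1 and -1.56 without library 2. With 1 control library left, the spread comes from the knockout pair alone (1.09-fold). A test there leaves out the 2.10-fold gap between the controls. The direction was thus the same against either control library, but the size changed more than 2-fold on the linear scale.

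Asf1b stood at 52.4 and 62.3 CPM in the knockout and at 68.7 and 83.2 in the controls, with a log2 fold change of -0.40 ± 0.21 (adjusted p = 0.236 in the edgeR test). Its partner form Asf1a, at 75.3 and 74.0 CPM against 85.5 and 74.0, had a value of -0.10 ± 0.19 (adjusted p = 0.776 in the edgeR test). The Asf1b groups did not overlap, while those of Asf1a did. Chaf1a was at 39.1 and 43.0 CPM in the knockout and at 41.4 and 42.6 CPM in the controls (log2 fold change -0.03 ± 0.20). Chaf1b was at 125 and 133 CPM against 108 and 137 (0.08 ± 0.20). For both CAF-1 genes the groups overlapped and the adjusted p was at least 0.827 in the edgeR test.

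Daxx had 78.8 and 72.8 CPM in the knockout and 91.6 and 130 in the controls, a log2 fold change of -0.55 ± 0.23 (adjusted p = 0.146 in the edgeR test). Hira had 89.6 and 92.4 CPM against 77.7 and 84.4 (0.17 ± 0.19, adjusted p = 0.584 in the edgeR test). H3f3b had 353 and 340 CPM against 277 and 259, and its value was 0.37 ± 0.18 (adjusted p = 0.200 in the edgeR test). The knockout libraries were below both controls for Daxx and above both for Hira and H3f3b.

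Atrx and Rif1 gave no stable direction. Atrx stood at 72.1 and 62.2 CPM in the knockout, between the control values of 144 and 55.3 CPM. Rif1, at 273 and 213 CPM, likewise lay between its controls at 436 and 158. The log2 fold changes were -0.57 ± 0.40 for Atrx and -0.29 ± 0.43 for Rif1 (adjusted p = 0.378 and 0.688 in the edgeR test). Without H1 control library 1 the values were 0.28 and 0.63 (adjusted p = 0.0386 and 6.4e-08), and without library 2 they were -1.10 and -0.85 (adjusted p = 4.9e-09 and 7.0e-07, all by the edgeR test). Each setting thus called both genes, in opposite directions. Of all genes, 22.8% were called lower and 23.4% higher without library 1, and 26.1% and 25.8% without library 2.

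Of the 10 genes, the H1 control libraries differed from each other most at Rif1, Atrx and Nasp, which are of low GC content. The higher of the 2 libraries exceeded the lower by 2.76-fold for Rif1, 2.60-fold for Atrx and 2.10-fold for Nasp, against at most 1.28-fold for any of the 10 within the H1 TKO pair and 1.20-fold within either Ubc9 pair. GC content of the longest transcript was 39.3% for Rif1, 39.5% for Atrx and 38.9% for Nasp, and at the other end 56.3% for Daxx, which was lower in library 1. Asf1a, at 38.6% GC, differed by only 0.21 on the log2 scale. Across 8543 genes, which are not independent replicates, the log2 ratio of H1 control library 1 to library 2 had a Spearman correlation of -0.79 with GC content. The same ratio in the knockout pair had one of -0.16. With exonic length the correlations were 0.41 in the control pair and 0.32 in the knockout pair. Rif1, Atrx and Nasp have 10504, 21757 and 7518 exonic bases, and Asf1a has 3638. Chaf1a, with 8854 bases and 52.7% GC, differed by only -0.04. The parts of GC content and length were not tested apart.

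**Figure D4:**
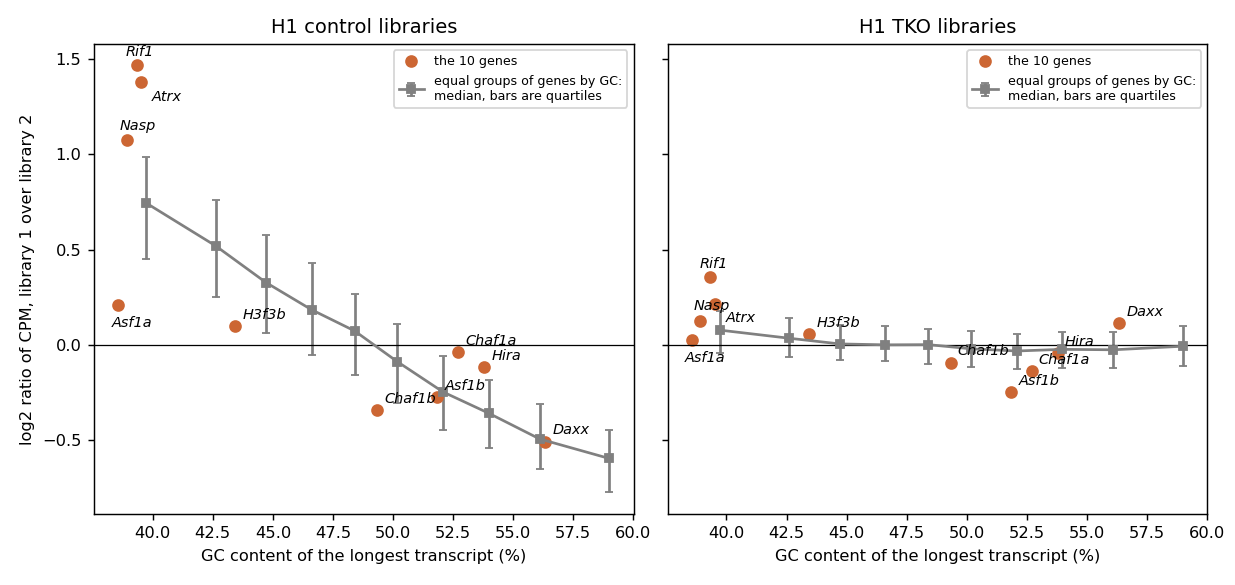
Log2 ratio of library 1 to library 2 within the H1 control pair (left) and the H1 TKO pair (right) against the GC content of each gene's longest transcript; named points are the 10 genes and the line joins medians of equal-sized groups of genes ordered by GC, with quartiles as bars. In the control pair Rif1, Atrx and Nasp, at 38.9% to 39.5% GC, lie above 1, and in the knockout pair the 10 genes lie between -0.25 and 0.36.

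With offsets that remove the GC trend in each library, an alternative chosen after seeing the data, 4 genes passed in the H1 comparison. Nasp fell by 0.89 (adjusted p = 0.00244), Daxx by 0.61 (adjusted p = 0.00621) and Asf1b by 0.46 (adjusted p = 0.0298), and H3f3b rose by 0.47 (adjusted p = 0.0352), all in edgeR with GC offsets. In that fit 17.0% of all genes were called lower and 16.5% higher. Atrx stood at -0.31 and Rif1 at -0.02, and neither passed. How far GC content or exonic length accounts for the spread of the control pair was not tested beyond offsets of each kind.

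The difference between the Ubc9 and the H1 effect was tested directly as an interaction over all 8 libraries, in which 14.5% of 16974 genes passed. By edgeR's test 0 of the 10 did, with 1 at an unadjusted p under 0.05 and 1 called lower by DESeq2 (9.72% of all genes), Hira in both cases. The Hira effect was lower in the Ubc9 comparison by 0.60 ± 0.22 on the log2 scale (adjusted p = 0.0968 in the edgeR test), and by 0.59 and 0.65 without H1 control library 1 or 2, where it passed (adjusted p = 0.0264 and 0.0111 in the edgeR test), as did 13.6% and 14.4% of all genes in that direction. Kit and cell line also differ between the comparisons and cannot be told apart from this difference.

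Levels per exonic kilobase (RPKM) put the 10 genes in order within each table, which were made with different kits and are not compared with each other. The order depends on the length used, which merges all annotated exons of a gene. Overlapping genes share 4648 of 8854 exonic bases of Chaf1a, 1748 of 3638 of Asf1a and 2778 of 6215 of Hira. Those of Chaf1a and Asf1a are listed in the count tables, while those of Hira are not. In Ubc9 control cells Nasp was highest at 187, followed by H3f3b at 131 and Rif1 at 128, whose libraries overlapped, and Atrx at 58.0. Daxx at 24.6, Chaf1b at 17.0, Asf1a at 16.6, Chaf1a at 14.1, Hira at 11.6 and Asf1b at 7.49 came after, and of these neighbours only Chaf1b and Asf1a overlapped. After Ubc9 depletion the top of the order changed, with H3f3b at 134 RPKM and Nasp at 125, whose libraries overlapped, and the places from Rif1 down were kept.

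In H1 control cells H3f3b led at 90.0 RPKM. Daxx (35.2 RPKM), Nasp (32.8), Asf1b (32.5), Rif1 (28.2), Chaf1b (26.2) and Asf1a (21.9) followed, and each overlapped the next in this order. Hira at 13.0 stood clear below them, and Chaf1a at 4.74 and Atrx at 4.57 overlapped. In H1 TKO cells H3f3b remained first at 116 RPKM, Chaf1b was second at 27.6 and Nasp seventh at 15.1.

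Lists of related genes were counted in the same fits, and their shares are read against the 15.0% of all genes, and 25.6% of genes of at least 10 CPM, that were lower after Ubc9 depletion. Of 24 other histone chaperones and complex partners, 7 were lower and 2 higher in Ubc9-depleted cells, with a median log2 fold change of -0.23 against 0.06 for all genes tested. The lower share, 29.2%, is close to that of genes of at least 10 CPM. The lower ones included Hirip3, a HIRA partner (-0.68), Tonsl, which reads newly placed histone H4 (-0.67), Anp32e, a chaperone of H2A.Z (-0.52), and Hat1, which acetylates new H4 (-0.46). Hjurp, the chaperone of the centromeric histone CENP-A (0.55), and Spty2d1 (0.41) rose. The histone-binding CAF-1 subunit Rbbp4, which also serves other complexes, had -0.30 and its relative Rbbp7 0.08, and neither passed.

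Of 13 genes for histone variants and histone supply, 4 were lower (30.8%, again near that share) and 0 higher, with a median of -0.22. They were H2afy, encoding macroH2A1 (-0.56), Slbp, which binds the end of replication-linked histone mRNA (-0.55), Casp8ap2 (-0.41) and Zfp473 (-0.39). Replication fork and origin genes were lower for 18 of 32 (56.2%) and higher for 0, with a median of -0.34. The lowest were Cdc6 (-0.75), Mcm10 (-0.74), Cdc45 (-0.66) and Cdt1 (-0.65), which load or start replication helicases, and the clamp gene Pcna stood at -0.42. G2/M genes were lower for 6 of 8 (75%), with a median of -0.47, led by Top2a (-0.80), Kif11 (-0.63), Ccnb1 (-0.50) and Plk1 (-0.48). The part of cell cycle stage in the members' values was not tested.

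Of 7 Rif1 partners tested, 1 was lower, the repair protein gene Trp53bp1 (-0.46), and 1 higher, Fam35a, also known as Shld2, a shieldin subunit (0.38). Among 13 ATRX-DAXX partners and heterochromatin genes, 3 were lower, namely the methyltransferase gene Ehmt2 (-0.34), Cbx3, which encodes HP1γ (-0.34), and Pml, the scaffold of nuclear bodies that hold DAXX (-0.32). None of these 13 was higher, the lower share of 23.1% lay below that of genes of at least 10 CPM, and with library totals alone 0 were lower. Over the 6 lists together, 39 of 97 genes were lower (40.2%) and 3 higher. With library totals alone 28 were lower, in a fit that called 6.57% of all genes lower. The number lower also changed widely when 1 library was left out, as did the share of all genes.

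In the H1 comparison 7 of the 97 listed genes were lower and 2 higher. The lower share, 7.22%, is close to the 8.43% of all genes and the 7.98% of genes of at least 10 CPM. The chaperone list had 2 lower and 0 higher of 24, Ubn2 of the HIRA complex (-2.22) and Mms22l, the partner of TONSL (-0.81). Ubn2 stood at 31.4 and 29.5 CPM in the knockout and at 182 and 101 in the controls, without overlap, and the interaction test called it (adjusted p = 0.0077 in the edgeR test). H2afy2 (-2.20) and H2afy (-1.08), the macroH2A genes, were the 2 lower of 13 variant and supply genes. H2afy2 stood at 8.90 and 8.89 CPM against 40.8 and 41.0.

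Replication genes were lower for 2 of 32, Mcm2 (-1.52), a helicase subunit that also binds H3 and H4, and Tipin (-0.82). The nuclear body gene Sp100 (3.05) and the H3K9 methyltransferase gene Setdb1 (0.69) were higher among the 13 heterochromatin genes, and Cbx3 (-1.97) was lower. The Rif1 partners and the G2/M genes had 0 called, with medians of 0.10 and -0.31. Over the 6 lists, 33 genes were lower and 16 higher without H1 control library 1 (22.8% and 23.4% of all genes), and 45 and 19 without library 2 (26.1% and 25.8% of all genes).

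Genes with the profile most like that of a member were sought over all 8 libraries, among 9212 genes, by the Euclidean distance of log2 CPM centred within each table. Chaf1a was closest to Emg1 (distance 0.0836), Sde2 (0.0952) and Cdk1 (0.116), with a median distance over all genes of 0.712. Chaf1b was closest to Nup85 (0.0717), Nelfcd (0.0780) and Arl6ip4 (0.102), with a median of 0.716. For Rif1 the nearest were Esf1 (0.108), Ttc14 (0.122) and Taok1 (0.166), with a median of 1.29. The nearest genes lie below these medians by selection, so the medians do not show whether a likeness is unusual, which was not tested. The H1 control libraries differed by 1.47 on the log2 scale for Rif1, more than its log2 fold changes of -0.30 (Ubc9) and -0.29 (H1). That gap weighs heavily in the Rif1 distances, so a near gene need not share a response to either change.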

How the data were processed

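Counts per gene in 8 libraries were analysed as deposited by the authors, in a table for each comparison. The submitters' processing notes name cutadapt, STAR, HTSeq, DESeq2 and mm10. Tool roles and versions, the annotation and strandedness were not given in the sources used here. Trizol RNA was enriched with polyA beads and turned into libraries with the ScriptSeq v2 (Ubc9) or Lexogen SENSE V2 (H1) kit, per the labels. The tables held 0 columns of other samples.

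The 4 libraries of each comparison were fitted separately in edgeR 4.0.16 (R 4.3.3) after filterByExpr (minimum count 10, minimum total 15), with TMM factors and the quasi-likelihood F test. P-values were adjusted by Benjamini-Hochberg over all genes tested, with a threshold of 0.05. The biological coefficient of variation was 0.255 in the Ubc9 and 0.239 in the H1 comparison. CPM used TMM-scaled totals. RPKM divided CPM by merged exonic length from GENCODE M21 (GRCm38), which matched 23376 symbols by name and 651 by an older name. At these depths the spread between libraries, not counting error, limits precision.

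The members and lists were chosen with earlier results of these data known. All members and the targeted H1 genes were named (the level of the gene targeted in the other comparison is not reported here), and of each list up to 4 called genes per direction with the largest change. Pcna, Rbbp4, Rbbp7, Cdk1 as a nearest gene, and the overlapping or near-identical genes H3f3a, Ubxn6, Mcm9 and Gm28539 were named besides, Pcna, Rbbp4 and Rbbp7 after their values were seen. Alternatives were RLE factors or scaling by library totals alone, DESeq2 1.42.0, no low-count filter, a decrease or increase of at least 1.5-fold, all libraries in 1 fit, a replicate block, and the omission of each library in turn. GC and length offsets (loess, span 0.5) were added after seeing the data. The code was checked on simulated data. Transposable elements were not analysed here.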

Additional observations from a re-analysis of the deposited data

How the results depend on the processing

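Of the members' Ubc9 log2 fold changes, those below 0 kept their direction in all 12 alternatives. The count of members lower, 7 of 10, was 1 with library totals alone, 0 with all 8 libraries in 1 fit (2.85% of all genes lower), 1 at a fold of at least 1.5, and 1 to 9 when 1 library was left out. In the H1 comparison the count of members lower was 1 in DESeq2, 1 with no filter (10.1% of all genes), 2 with all 8 libraries in 1 fit (12.7%), 3 with GC offsets (17.0%) and 2 with length offsets (11.9%), and 0 to 4 when 1 library was left out. The H1 count of members higher was 1 with GC offsets and 0 to 3 when 1 library was left out. Members called in the interaction were 1 in DESeq2 (lower), and 0 to 3 lower and 0 to 2 higher when 1 library was left out. For the lists, the Ubc9 count higher was 1 in DESeq2, 8 with library totals alone and 0 to 4 with 1 library left out, and the count lower 6 to 72. The H1 list count lower was 21 with GC offsets, 11 with length offsets and 4 to 45 with 1 library left out, and the count higher 4 in DESeq2, 7 and 4 with the offsets and 1 to 19. Of all genes, 14.5% were higher in the Ubc9 comparison in DESeq2 and 24.1% with library totals alone. The 8 of 97 list genes higher with library totals alone are a smaller share than that. In the H1 comparison 10.3% of all genes were higher in DESeq2, 16.5% with GC offsets and 9.39% with length offsets. A group left with 1 library was assumed to vary like the other groups. Apart from the smaller groups, the cause of these changes was not tested.

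Some log2 values changed sign. H3f3b in the Ubc9 comparison was -0.025 in DESeq2 and ran from -0.11 to 0.14 when 1 library was left out. In the H1 comparison Asf1a was 0.039 with GC offsets. Leaving out 1 library there gave ranges of -0.10 to 0.016 for Chaf1a, -0.079 to 0.26 for Chaf1b, -0.20 to 0.017 for Asf1a, -1.10 to 0.28 for Atrx and -0.85 to 0.63 for Rif1. In the interaction, library totals alone gave Asf1a 0.092, Asf1b 0.21 and Rif1 0.30. Leaving out 1 library there gave -0.25 to 0.039 for Asf1b, -0.17 to 0.96 for Nasp, -0.69 to 0.74 for Atrx, -0.073 to 0.38 for Daxx and -0.99 to 0.53 for Rif1.

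The labels give the same replicate numbers to both groups of a comparison, but nothing says that a number marks a shared batch, and there are only 2 pairs. Same-numbered libraries deviated together with a correlation of -0.0032 in the Ubc9 and 0.156 in the H1 comparison. With a replicate block, 8 members were lower in the Ubc9 comparison (2643 of 16499 genes), 1 in the H1 comparison (11.7% of all genes) and 0 in the interaction (7.76%). The calls added by the block were Rif1 in the Ubc9 comparison (adjusted p = 0.0385) and Nasp in the H1 comparison (adjusted p = 0.000662), in edgeR.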

Other observations

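Ratios between paired genes were taken per exonic kilobase within each library. Asf1b over Asf1a was 0.408 and 0.388 in Ubc9-depleted cells and 0.469 and 0.436 in their controls, lower in both depleted libraries, and 1.08 and 1.31 in H1 TKO cells against 1.25 and 1.75. Chaf1a over Chaf1b was 0.740 and 0.791 after Ubc9 depletion and 0.778 and 0.887 in the controls, which overlap, and 0.165 and 0.170 in H1 TKO cells against 0.203 and 0.164. H3f3b over H3f3a was 15.9 and 17.4 after depletion and 15.3 and 19.6 in the controls, again overlapping, whereas in the H1 table it was 2.97 and 2.60 in the knockout and 2.18 and 1.40 in the controls, higher in both knockout libraries. These differences of ratios were not tested, and levels in the 2 tables come from different kits. Reads of the bases that Asf1a shares with Mcm9, which rose after Ubc9 depletion, cannot be assigned. The same holds for the bases that Chaf1a shares with Ubxn6. How reads were divided between the H3.3 genes is uncertain as well.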
